A study of Mus musculus with 37 samples.

Results

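Cadherins are calcium-dependent adhesion proteins that hold neighbouring cells together. Classical cadherins bind the same cadherin on the next cell, and their cytoplasmic tails are tied to the actin cytoskeleton by catenins. In an epithelial-mesenchymal transition, cells are described as losing E-cadherin and gaining N-cadherin, and the Snail and Twist transcription factors repress the E-cadherin gene. The members described here were 7 genes: the epithelial cadherins Cdh1 (E-cadherin) and Cdh16 (Ksp-cadherin, found on kidney tubule cells), Cdh3 (P-cadherin, of basal epithelia and placenta), Cdh6 (K-cadherin, of the developing nephron), Cdh2 (N-cadherin), Cdh11 (OB-cadherin, of mesenchymal cells) and Cdh13 (T-cadherin, which lacks a cytoplasmic tail and is held by a lipid anchor). They were chosen by name, each gene was represented by its probe with the highest mean signal, and all 7 were among the 12866 genes that passed the filter on low values.

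Messenger RNA was measured on 37 Illumina bead arrays of mouse kidneys after unilateral ureteral obstruction, a surgical model of kidney fibrosis in which 1 ureter is tied, and of healthy kidneys. Obstructed kidneys came from 4 Twist1-deleted mice, 3 Twist1-line controls, 3 Snai1-deleted mice and 3 Snai1-line controls. Contralateral kidneys gave 3 arrays for each of these genotypes, since that of mouse 5, a Twist1-deleted animal, is not analysed here. Healthy kidneys gave 3 arrays each of Twist1-deleted, Snai1-deleted, wild-type with cre and wild-type without cre mice. Deleted mice carried a ggt-driven cre, active in proximal tubule cells, with both Twist or both Snail alleles floxed, while line controls were floxed without cre, so that cre and deletion went together within each line. The background was mixed C57Bl/6 and sv129 in wild-type mice and the Twist1 line, and mixed C57Bl/6 and Balb/c in the Snai1 line. Age was 26 weeks for healthy deleted mice and 10 weeks for all others. The treatment label names obstruction for every sample, also for those whose phenotype label is healthy. The phenotype label was followed.

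Levels are log2 intensities after background correction and quantile normalisation, in which an absent signal lies just above 4. A gene changed where limma's moderated two-sided test gave a Benjamini-Hochberg adjusted p under 0.05 over all 12866 genes. Such p-values rest on the spread between arrays within groups, each array of a group from a different mouse. The pairing of both kidneys of a mouse was not part of this fit. In bulk RNA, fewer cells of a type and less RNA per cell cannot be told apart. Detected probes per array numbered 18797 to 20682 in obstructed, 16977 to 18980 in contralateral and 17057 to 18393 in healthy kidneys. In whole kidney RNA the deleted genes were near background. Twist1 was at 4.55 to 5.05 in obstructed Twist1-deleted kidneys, against 4.69 to 5.41 in their controls (log2 difference -0.34, adjusted p = 0.507). Snai1 was at 4.80 to 5.61 in obstructed Snai1-deleted kidneys, against 5.30 to 5.99 in their controls (log2 difference -0.36, adjusted p = 0.667). Neither difference passed the test. All 11 proximal tubule markers measured fell on obstruction, with a summed linear intensity of 8674 to 74529 in obstructed and 85645 to 96897 in contralateral kidneys. All 8 markers of injured tubules rose (6450 to 43624 in obstructed, 561 to 2482 in contralateral kidneys), as did 8 of 9 markers of fibroblasts and pericytes (3986 to 16178 in obstructed, 1046 to 2978 in contralateral kidneys) and all 8 of macrophages (2998 to 9136 in obstructed, 682 to 1398 in contralateral kidneys). Among defining markers of other cells, Calb1, Atp6v0d2, Cnn1, Cd8a, Cd4, Fabp4 and Retn were detected on 0 arrays.

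Snail and Twist proteins bind the DNA motif called an E-box. Of the members a promoter sequence is shown for Cdh6 alone, 1 of the 2 cadherins that rose on obstruction. No motif result is given for the promoters of the other members, so none is compared with that of Cdh6. The RefSeq window on GRCm38.p6, chr15:13173626-13173925 on the minus strand, runs from 250 bases before the gene's start to 50 bases after it, and capitals mark the E-box.

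Cdh6 promoter: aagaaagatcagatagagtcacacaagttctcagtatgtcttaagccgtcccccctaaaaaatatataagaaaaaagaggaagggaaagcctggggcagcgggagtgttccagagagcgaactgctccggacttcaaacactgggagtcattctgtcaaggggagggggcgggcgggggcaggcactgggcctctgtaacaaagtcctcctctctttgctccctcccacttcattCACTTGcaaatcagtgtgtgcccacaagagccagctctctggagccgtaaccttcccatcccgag

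The window held 1 match to CANNTG, a motif that reads the same on both strands, beginning at base 236 of 300. Of 32851 promoter windows of this length, 72.3% held CANNTG. The variant CAGGTG, or CACCTG on the other strand, was not among these letters and was in 20.2% of the windows.

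Obstruction raised Cdh3 and Cdh6, while the epithelial cadherins Cdh1 and Cdh16 did not pass the test, although Cdh16 was lower and passed with the authors' series matrix values. In the mean over the 4 genotypes of obstructed minus contralateral kidneys, 2 of 7 members rose and 1, Cdh2, fell. Of all genes 62.2% changed, 33.6% upward and 28.7% downward, so the members' share was not above the background. The median log2 change was 0.11 over the 7 members and 0.01 over all genes. The N-cadherin gene did not rise, and the mesenchymal cadherin Cdh11 did not pass the test.

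**Figure D1:**
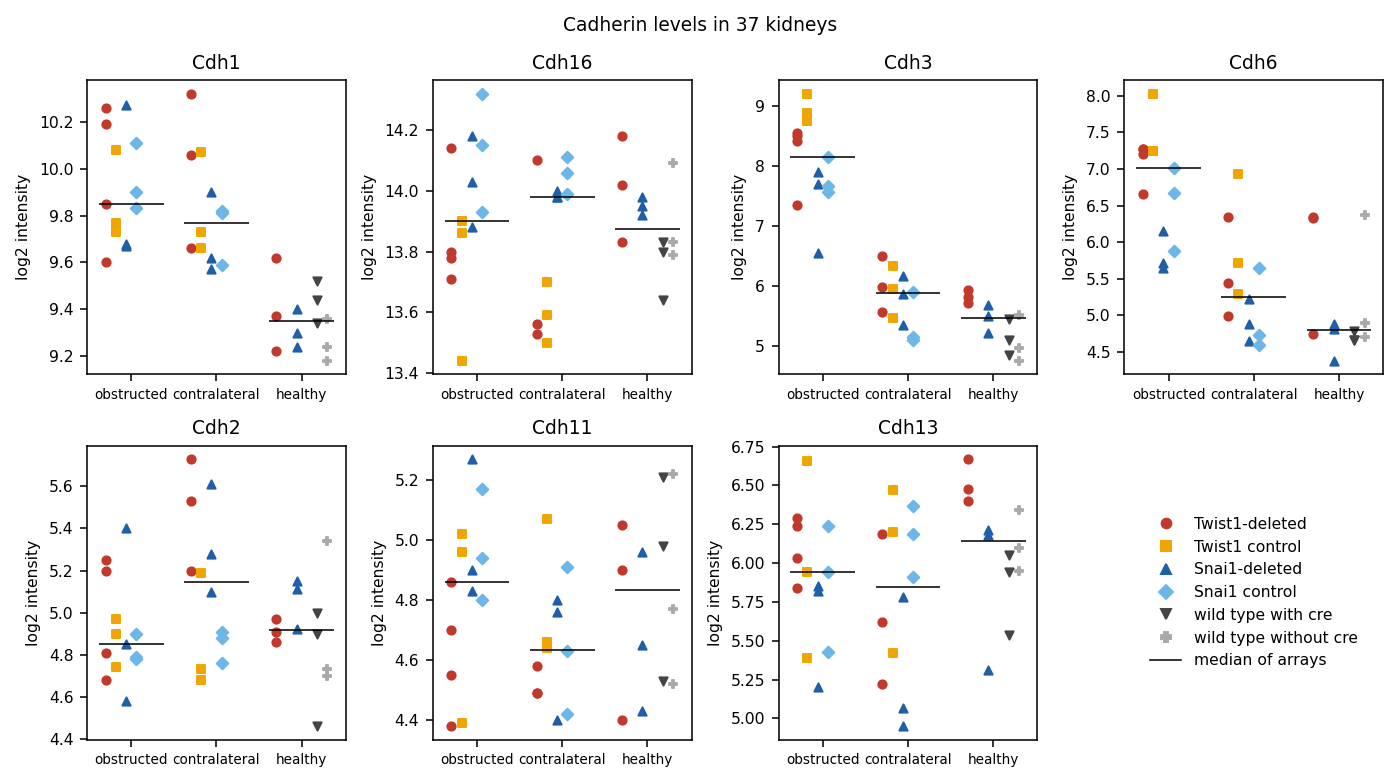
Log2 intensity of each cadherin (vertical axis, a separate scale per gene) in every array, by kidney phenotype (horizontal axis), with genotype as colour and symbol and the median of the arrays as a line. Cdh3 and Cdh6 are high in obstructed kidneys, with Cdh3 at 6.56 to 9.21 in obstructed and 5.11 to 6.50 in contralateral kidneys, and Cdh1 is lowest in healthy kidneys.

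Cdh1, the adhesion protein of most epithelia, was at 9.60 to 10.27 in 13 obstructed kidneys (median 9.85), at 9.57 to 10.32 in 12 contralateral kidneys (median 9.77) and at 9.18 to 9.62 in 12 healthy kidneys (median 9.35). Obstructed and contralateral values covered nearly the same range. The mean log2 change on obstruction was 0.10 (SE 0.09, 95% interval -0.08 to 0.28, adjusted p = 0.346), and 10 of 12 mice were higher in the obstructed kidney. With the authors' series matrix values it was -0.10, also short of the threshold.

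Within genotypes Cdh1 differed by -0.04 in Twist1-deleted, 0.04 in Twist1 control, 0.18 in Snai1-deleted and 0.21 in Snai1 control mice, with adjusted p from 0.396 to 0.888. The intervals of the 4 differences reached from -0.38 to 0.58, so a change of 1 on the log2 scale lay outside them.

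Cdh16, an adhesion protein of the basolateral membrane of tubule cells, was at 13.44 to 14.32 in obstructed kidneys (median 13.90), at 13.50 to 14.11 in contralateral kidneys (median 13.98) and at 13.64 to 14.18 in healthy kidneys (median 13.88). The 3 ranges overlapped throughout, and the mean level over arrays stood at the 99.7th percentile of all genes tested. The mean log2 change on obstruction was 0.10 (SE 0.07, 95% interval -0.05 to 0.24, adjusted p = 0.252), but it was -0.45 and passed the test (adjusted p = 0.00103) with the authors' series matrix values, which are scaled and not quantile-normalised. In those values the median of all genes was -0.08.

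Before normalisation, the average signal of the Cdh16 probe had a median of 14577 in obstructed, 16522 in contralateral and 17890 in healthy kidneys, so the direction of this gene rests on how arrays are scaled. The raw range was 7057 to 19892 in obstructed and 8632 to 21181 in contralateral kidneys, and these ranges overlapped widely. The proximal tubule markers fell under both scalings, by a median log2 change of -2.06 here and -2.23 in the series matrix values.

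Cdh3, the P-cadherin of basal epithelial layers, was at 7.36, 8.42, 8.50 and 8.56 in obstructed Twist1-deleted kidneys, against 5.58, 5.99 and 6.50 in their contralateral kidneys. It was at 8.76, 8.89 and 9.21 in obstructed Twist1 control kidneys, against 5.47, 5.96 and 6.34 in the contralateral kidneys. In the Twist1 line every obstructed kidney stood above every contralateral one.

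In the Snai1 line Cdh3 was at 6.56, 7.70 and 7.91 in obstructed Snai1-deleted kidneys, against 5.36, 5.88 and 6.17 in the contralateral kidneys. It was at 7.58, 7.67 and 8.15 in obstructed Snai1 control kidneys, against 5.11, 5.15 and 5.90 in the contralateral kidneys. Here too the groups did not overlap, and over all 25 arrays the lowest obstructed value, that of mouse 11, was 6.56 and the highest contralateral value 6.50.

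Cdh3 rose 4.94-fold in the mean of the genotypes (log2 change 2.30, SE 0.16, adjusted p = 9.64e-13) and was higher in the obstructed kidney of 12 of 12 mice, by 0.68 to 3.29. It rose by 2.19 in Twist1-deleted, 3.03 in Twist1 control, 1.58 in Snai1-deleted and 2.42 in Snai1 control mice, with adjusted p from 3.5e-08 to 0.00126. The smallest changes were those of mouse 11 (0.68) and mouse 7 (0.86). Without mouse 12 the change in Snai1-deleted mice was 1.21 and no longer passed (adjusted p = 0.0595). The shares of all genes that changed were 40.1% in Twist1-deleted, 47.2% in Twist1 control, 15.2% in Snai1-deleted and 36.4% in Snai1 control mice.

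The other kept probes of Cdh3 gave mean changes of 1.69, from a probe detected on 19 arrays, and 0.86, from a probe detected on 11 arrays, and both passed the test. The second did not pass in Snai1-deleted mice (0.56, adjusted p = 0.0581). The markers of urothelium, a layered epithelium that can enter a kidney sample from the pelvis, rose for 3 of 6 genes. Their summed intensity was 151 to 5251 in obstructed, 132 to 929 in contralateral and 147 to 1363 in healthy kidneys, and none of the 6 was undetected throughout. In obstructed kidneys Upk1b was detected on 12 of 13 arrays, Upk1a, Upk2 and Trp63 on 11 each, Upk3a on 8 and Krt5 on 5. In contralateral kidneys Upk1a was detected on 7 of 12 arrays, Upk1b and Upk2 on 6 each, Upk3a on 4, Trp63 on 1 and Krt5 on 0. Their part in the rise of Cdh3 was not tested.

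Cdh6, the K-cadherin of the early proximal tubule in mouse development, was at 6.66, 7.21, 7.27 and 7.28 in obstructed Twist1-deleted kidneys, against 4.99, 5.44 and 6.34 in the contralateral kidneys. It was at 7.24, 7.25 and 8.03 in obstructed Twist1 control kidneys, against 5.29, 5.72 and 6.93 in the contralateral kidneys. Within each genotype of the Twist1 line the groups did not overlap, although 1 contralateral kidney of each lay well above the others, and that of the controls (6.93) exceeded the lowest obstructed kidney of the deleted mice (6.66).

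In the Snai1 line Cdh6 was at 5.65, 5.72 and 6.16 in obstructed Snai1-deleted kidneys, against 4.65, 4.88 and 5.22 in the contralateral kidneys. It was at 5.88, 6.67 and 7.01 in obstructed Snai1 control kidneys, against 4.60, 4.73 and 5.65 in the contralateral kidneys. Within each genotype the obstructed values were higher without overlap, whereas over the lines the highest contralateral kidney of the Twist1 line exceeded several obstructed kidneys of the Snai1 line.

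Cdh6 rose 2.59-fold in the mean of the genotypes (log2 change 1.37, SE 0.22, adjusted p = 3.03e-06) and was higher in the obstructed kidney of 12 of 12 mice, by 0.32 to 2.31. It rose by 1.51 in Twist1-deleted (adjusted p = 0.00455), 1.53 in Twist1 control (adjusted p = 0.00547) and 1.53 in Snai1 control mice (adjusted p = 0.00756). In Snai1-deleted mice it differed by 0.93 (95% interval 0.02 to 1.83, adjusted p = 0.165), and passed when only the groups of that comparison were fitted (adjusted p = 0.0408). The rise did not pass without mouse 2 or 3 in Twist1 controls (1.13, adjusted p = 0.108, and 1.32, adjusted p = 0.0529), without mouse 4 in Twist1-deleted mice (1.16, adjusted p = 0.0829) or without mouse 8 in Snai1 controls (1.32, adjusted p = 0.0867). Cdh6 was detected in 13 of 13 obstructed, 7 of 12 contralateral and 3 of 12 healthy kidneys, so its lower levels are close to background, which makes the folds approximate.

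**Figure D2:**
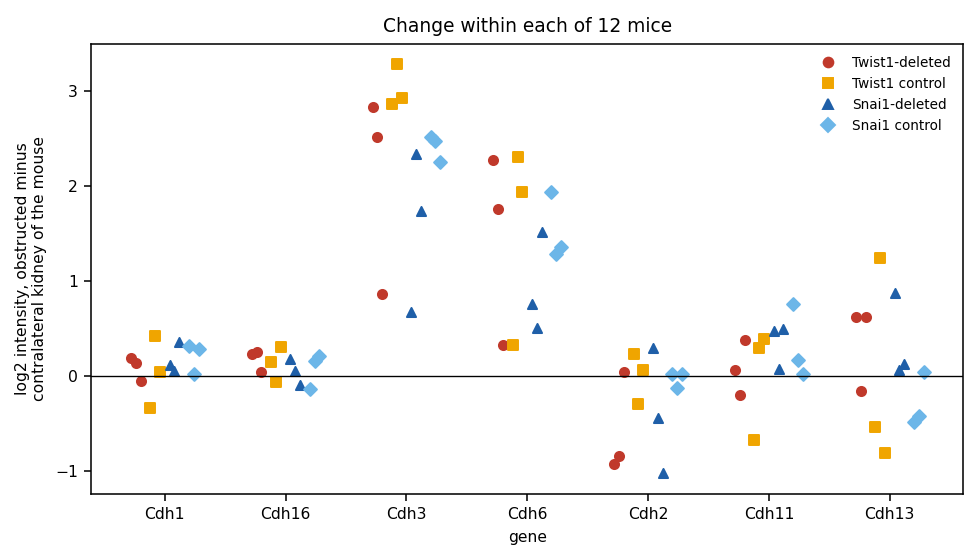
Log2 intensity of the obstructed minus the contralateral kidney of each mouse (vertical axis) for each cadherin (horizontal axis), with genotype as colour and symbol. All 12 points lie above 0 for Cdh3 (0.68 to 3.29) and Cdh6 (0.32 to 2.31), while those of the other 5 genes lie on both sides of 0.

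Cdh2, the N-cadherin gene, was at 4.58 to 5.40 in obstructed kidneys (median 4.85) and at 4.68 to 5.73 in contralateral kidneys (median 5.15). In healthy kidneys it was at 4.46 to 5.34 (median 4.91). The probe was detected in 8 of 13 obstructed, 7 of 12 contralateral and 3 of 12 healthy kidneys, and the ranges overlapped. The mean log2 change fell by 0.23 (SE 0.10, adjusted p = 0.0447), with 6 of 12 mice higher and 6 lower in the obstructed kidney.

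Within genotypes Cdh2 fell by 0.50 in Twist1-deleted mice (adjusted p = 0.0329) and differed by 0.00 in Twist1 control, -0.39 in Snai1-deleted and -0.03 in Snai1 control mice, none of which passed. With mouse as a fixed replicate block the mean change was -0.25 (adjusted p = 0.0876) and that of Twist1-deleted mice -0.57 (adjusted p = 0.0791), so both calls were lost. The call in the mean was also lost with quantile normalisation and no background step (-0.07, adjusted p = 0.0671) and without any 1 of mice 2, 3, 4, 6, 8, 9, 10, 12 and 13 (-0.15 to -0.24). That of Twist1-deleted mice was lost without mouse 4 (-0.32) or mouse 6 (-0.38), and with only the groups of the comparison fitted (adjusted p = 0.125).

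Cdh11, the cadherin of osteoblasts and fibroblasts, was at 4.38 to 5.27 in obstructed kidneys (median 4.86), at 4.40 to 5.07 in contralateral kidneys (median 4.63) and at 4.40 to 5.22 in healthy kidneys (median 4.84). It was detected in 6 of 13 obstructed, 1 of 12 contralateral and 3 of 12 healthy kidneys. The mean log2 change was 0.19 (95% interval -0.02 to 0.41, adjusted p = 0.111), with 10 of 12 mice higher in the obstructed kidney, and it passed without mouse 1 (0.28, adjusted p = 0.0228). Of 13 mesenchymal and matrix genes measured, 12 rose and 0 fell (median log2 change 2.45, all genes 0.01), led by Tnc, a matrix glycoprotein (3.85), Col1a1, a chain of collagen I (3.82), and Fn1, fibronectin (3.07).

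Cdh13, the T-cadherin of endothelium and smooth muscle, was at 5.20 to 6.66 in obstructed kidneys (median 5.94), at 4.95 to 6.47 in contralateral kidneys (median 5.85) and at 5.31 to 6.67 in healthy kidneys (median 6.14). The ranges overlapped throughout. The mean log2 change was 0.11 (95% interval -0.20 to 0.43, adjusted p = 0.529), and 7 of 12 mice were higher in the obstructed kidney. In the same kidneys 7 of 10 endothelial markers rose and 2 fell, with a summed intensity of 8073 to 17947 in obstructed and 5831 to 9314 in contralateral kidneys.

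Deletion of Twist1 or Snai1 in the proximal tubule moved no cadherin past the threshold. In obstructed kidneys limma called 0 of 7 members for Twist1 deletion and 0 of 7 for Snai1 deletion, against 0.0311% and 0% of all genes. At an unadjusted p under 0.05 the counts were 1 and 0 of 7, against 11.5% and 11% of all genes. In contralateral kidneys the counts were again 0 and 0, against 0.00777% and 0% of all genes, with 1 and 2 members at an unadjusted p under 0.05, against 5.2% and 2.56% of all genes. Each count of 0 also held with quantile normalisation and no background step and with the series matrix values.

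Cdh3 averaged 8.21 ± 0.57 in obstructed Twist1-deleted kidneys (SD, n = 4) and 8.95 ± 0.23 in obstructed Twist1 control kidneys (SD, n = 3). All 4 deleted kidneys lay below the 3 control kidneys, yet the log2 difference of -0.74 (95% interval -1.37 to -0.11) did not pass over all genes (adjusted p = 0.368, limma). It averaged 7.39 ± 0.73 in obstructed Snai1-deleted and 7.80 ± 0.31 in obstructed Snai1 control kidneys (SD, n = 3 each), with a difference of -0.41 (95% interval -1.09 to 0.26, adjusted p = 0.693, limma). Single kidneys set the size of both differences: for Cdh3 it was -0.46 in the Twist1 line without mouse 7, and 0.00 in the Snai1 line without mouse 11, -0.24 without mouse 10 and -0.67 without mouse 13. Beside these values, the median log2 difference of the proximal tubule markers was 1.19 for Twist1 deletion and 1.27 for Snai1 deletion in obstructed kidneys, and that of the injured tubule markers -0.68 and -0.86, with 0 markers of either list called. Their part in the Cdh3 values was not tested.

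For Cdh1 the difference in obstructed kidneys was 0.11 for Twist1 deletion (95% interval -0.23 to 0.46) and -0.07 for Snai1 deletion (95% interval -0.44 to 0.29). For Cdh16 it was 0.13 (95% interval -0.15 to 0.41) and -0.10 (95% interval -0.40 to 0.20), and for Cdh6 -0.40 (95% interval -1.25 to 0.45) and -0.68 (95% interval -1.58 to 0.23). The difference for Cdh2 was 0.11 for Twist1 and 0.12 for Snai1 deletion. The intervals of the E- and Ksp-cadherin genes therefore left room for differences of less than 0.5 on the log2 scale, and those of Cdh6 for much larger ones.

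Cdh2 in contralateral kidneys was at 5.20, 5.53 and 5.73 in Twist1-deleted mice, against 4.68, 4.73 and 5.19 in Twist1 controls. It was at 5.10, 5.28 and 5.61 in Snai1-deleted mice, against 4.76, 4.88 and 4.91 in Snai1 controls. In both lines the groups did not overlap, though only narrowly in the Twist1 line (5.20 against 5.19). The probe was detected in 3 of 3 and 3 of 3 deleted kidneys, against 1 of 3 and 0 of 3 control kidneys. The log2 differences were 0.62 (95% interval 0.21 to 1.03, unadjusted p = 0.00446, adjusted p = 0.636, limma) and 0.48 (95% interval 0.07 to 0.89, unadjusted p = 0.0230, adjusted p = 1.00, limma), and neither passed over all genes. Since no Snai1 control array detected Cdh2, the difference between these means stands for at least 1.29-fold (0.37 on the log2 scale). That bound leaves out the spread between mice, and the interval reached down to 0.07.

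Cdh13 was lower in contralateral kidneys of Snai1-deleted mice, at 4.95, 5.07 and 5.78, than in those of Snai1 controls, at 5.91, 6.19 and 6.37. The probe was detected on 1 of 3 deleted and 3 of 3 control arrays, so the lower values lie near background. These groups did not overlap, and the log2 difference was -0.89 (unadjusted p = 0.00756, adjusted p = 1.00, limma). The tests of whether deletion altered the obstruction change called 0 of 7 members in each line and 0% of all genes, with 0 members at an unadjusted p under 0.05. For Cdh3 the obstruction change was smaller by 0.84 on the log2 scale in Twist1-deleted than in control mice (difference -0.84, 95% interval -1.77 to 0.08, adjusted p = 0.858) and by 0.83 in Snai1-deleted than in control mice (difference -0.83, 95% interval -1.79 to 0.12, adjusted p = 1.00). The Cdh3 difference in change was -0.32 without mouse 7 in the Twist1 line and -0.38 without mouse 11 in the Snai1 line.

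**Figure D3:**
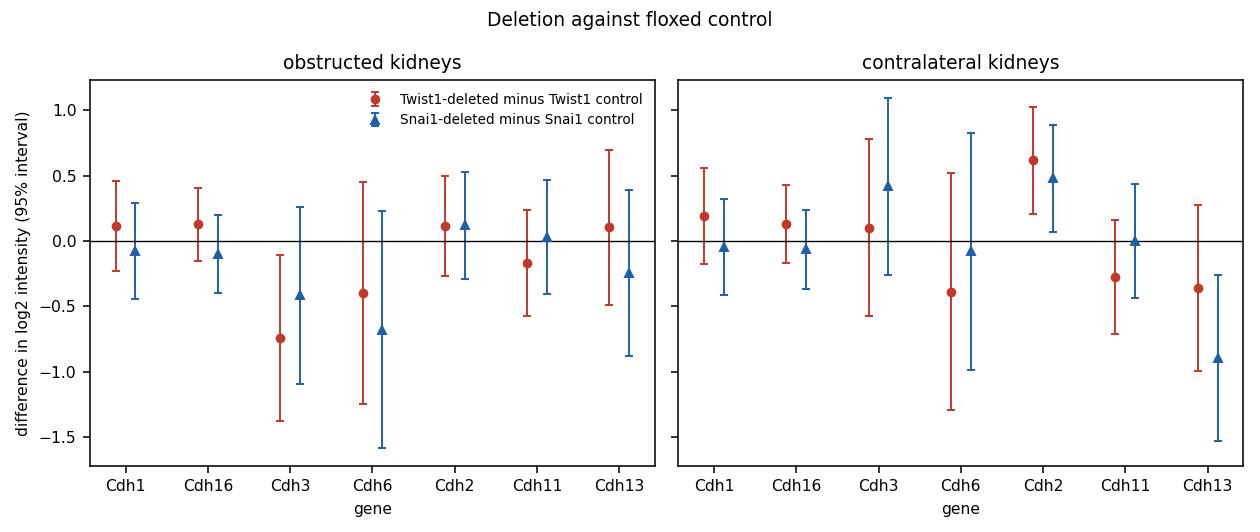
Difference in log2 intensity between deleted mice and the floxed controls of their line (vertical axis, points with 95% intervals from limma) for each cadherin (horizontal axis), in obstructed kidneys on the left and contralateral kidneys on the right. No difference passed the adjusted test, and Cdh3 in obstructed kidneys lies at -0.74 for Twist1 and -0.41 for Snai1 deletion.

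In healthy kidneys, cre alone called 0 of 7 members (0.0155% of all genes, 0 members at an unadjusted p under 0.05). Twist1 deletion in 26-week-old mice against 10-week-old wild-type mice with cre called 0 of 7 (3.4% of all genes), and 3 members had an unadjusted p under 0.05, as had 19.7% of all genes. These were Cdh3 (0.69, adjusted p = 0.245), Cdh6 (at least 1.72-fold, adjusted p = 0.155) and Cdh13 (0.67, adjusted p = 0.223), each with the higher mean in deleted mice. For Cdh6 the fold is a bound, set on each wild-type array against the higher of its lowest detected signal and the probe's own. The reason is that the probe was detected on 2 of 3 deleted and 0 of 3 wild-type arrays. That bound leaves out the spread between mice. It also takes the undetected deleted kidney, that of mouse 20, at its measured 4.74, so it is a bound on the wild-type side only. Xist exceeded the Y-linked genes in 3 of 3 deleted and 0 of 3 wild-type mice, so age, this reading and deletion cannot be told apart for any of the 3 genes. Snai1 deletion called 0 of 7 (0.886% of all genes, 0 members at an unadjusted p under 0.05), with age, background and deletion going together.

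The contralateral kidney was itself set against healthy kidneys, since it takes over the work of the obstructed one. Cdh1 was at 9.66, 9.73 and 10.07 in contralateral kidneys of Twist1 controls, against 9.18, 9.24 and 9.36 in healthy wild-type mice without cre. All 3 contralateral values exceeded the healthy ones after normalisation, and Cdh1 was 1.48-fold higher (log2 difference 0.56, SE 0.18, adjusted p = 0.0300, limma). This was 1 of 7 members called, against 17.8% of all genes. The call was lost with the series matrix values (0.18, adjusted p = 0.577, median of all genes -0.23), with only the groups of the comparison fitted (adjusted p = 0.0542) and without mouse 1 (0.43), mouse 18 (0.52) or mouse 19 (0.55). The other kept Cdh1 probe, detected on 4 arrays, gave 0.16. Before normalisation the average signals of the Cdh1 probe overlapped, at 627.4 to 1037.3 in these contralateral and 662.5 to 886.7 in these healthy kidneys. Raw signals at the 25th percentile were 86.3 to 110.1 in all contralateral and 107.6 to 121.4 in all healthy kidneys. Their part in the Cdh1 difference was not tested. The contralateral mice were floxed and the healthy ones wild-type, so genotype and kidney state cannot be told apart.

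Between the control lines, which differ in genetic background, 1 of 7 members differed in contralateral kidneys (13.4% of all genes). Cdh16 was at 13.50, 13.59 and 13.70 in Twist1 controls, against 13.99, 14.06 and 14.11 in Snai1 controls, without overlap. It was lower by 0.46 in the Twist1 controls (SE 0.15, adjusted p = 0.0371, limma). With the series matrix values, in which the median of all genes was -0.25, the difference was -0.91. The call was lost with only the groups of the comparison fitted (adjusted p = 0.0773) and without any 1 of the 6 mice (-0.41 to -0.51). In contralateral kidneys of deleted mice Cdh16 was at 13.53, 13.56 and 14.10 in the Twist1 line, against 13.98 to 14.00 in the Snai1 line. In healthy kidneys of deleted mice it was at 13.83 to 14.18 in the Twist1 line and 13.92 to 13.98 in the Snai1 line. The part of background in the difference between controls was not tested. The change on obstruction differed between the control lines for 0 of 7 members (0.0389% of all genes, 0 members at an unadjusted p under 0.05).

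By order of group means, the 4 obstructed groups held the first 4 places for Cdh3, from 8.95 ± 0.23 in Twist1 controls to 7.39 ± 0.73 in Snai1-deleted mice, and healthy wild-type kidneys without cre the last (5.09 ± 0.39). Neighbouring obstructed groups did not differ beyond their spread. Twist1 controls and Twist1-deleted mice had values without overlap, but their ranges of mean ± SD overlapped and the difference did not pass the test. For Cdh6 the order began with Twist1 controls (7.50 ± 0.45) and Twist1-deleted mice (7.10 ± 0.30), both obstructed, and the contralateral kidneys of Twist1 controls (5.98 ± 0.85) came before the obstructed kidneys of Snai1-deleted mice (5.84 ± 0.28). For Cdh1 the 4 healthy groups held the last 4 places, at 9.26 ± 0.09 to 9.43 ± 0.09, while no phenotype was gathered at 1 end for Cdh2, Cdh11, Cdh13 or Cdh16. Every SD is over 3 arrays, or 4 for obstructed Twist1-deleted kidneys.

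Part of the spread of Cdh6 in kidneys without obstruction moved with a reading of sex-linked RNA. Sex is not in the labels, but in 8 of 25 mice the Xist signal exceeded that of Y-linked genes. In 5 groups of contralateral or healthy kidneys that held both readings, the Xist-reading kidney had the highest Cdh6 level in 5 of 5. It was at 6.34 against at most 5.44 in contralateral Twist1-deleted kidneys, at 6.93 against at most 5.72 in Twist1 controls, at 5.22 against at most 4.88 in Snai1-deleted mice, at 5.65 against at most 4.73 in Snai1 controls and at 6.37 against at most 4.90 in healthy wild-type mice without cre.

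All 3 healthy Twist1-deleted mice gave the Xist reading, with Cdh6 at 4.74, 6.33 and 6.35, while 0 of 3 wild-type mice with cre did, with Cdh6 at most 4.79. In obstructed kidneys the Xist-reading mouse ranked first in 1 of 4 genotypes, and its change on obstruction was 0.32 in Twist1-deleted mice, where the others changed by 1.77 and 2.28. In Twist1 controls the change was 0.32 in the Xist-reading mouse, where the others changed by 1.94 and 2.31. The corresponding values were 0.50 against 0.76 and 1.52 in Snai1-deleted mice and 1.36 against 1.28 and 1.94 in Snai1 controls. Among the other members, the Xist-reading kidney was highest in 4 of the same 5 groups for Cdh1, Cdh3 and Cdh16, in 3 for Cdh11, in 2 for Cdh13 and in 0 for Cdh2, so this order was not seen for Cdh6 alone. These values are a description, and the part of sex in the Cdh6 differences was not tested.

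**Figure D4:**
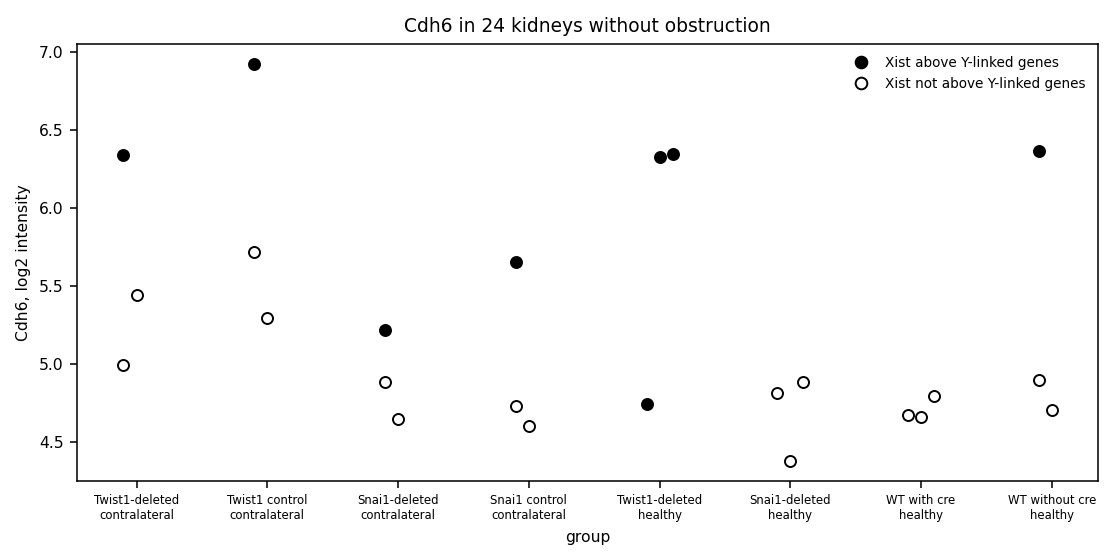
Log2 intensity of Cdh6 (vertical axis) in each of the 24 contralateral and healthy kidneys by group (horizontal axis), with kidneys whose Xist signal lay above the Y-linked genes filled. Filled points are highest in each of the 5 groups that hold both kinds, and the healthy Twist1-deleted group, all filled, spans 4.74 to 6.35.

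Across the 13 obstructed kidneys, 1 per mouse, Cdh3 and Cdh6 varied together. Pearson's r was 0.814 (permutation p = 0.0008, adjusted over 21 pairs of members 0.0168) and Spearman's rho 0.83 (permutation p = 0.00079, adjusted 0.0166), two-sided with 100000 resamples. Without the 2 kidneys farthest from the median of Cdh3, r was 0.795. Within the lines r was 0.619 in the Twist1 line (n = 7, exact permutation p = 0.188) and 0.663 in the Snai1 line (n = 6, exact permutation p = 0.138), positive in both but short of the threshold. The Twist1 line had the higher mean level of both genes, and the part of the line in the pooled value was not tested.

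Cdh16 ran the other way, at r = -0.687 with Cdh6 (permutation p = 0.00867, adjusted 0.091; rho = -0.786, adjusted 0.0218) and r = -0.641 with Cdh3 (permutation p = 0.0192, adjusted 0.134; rho = -0.709, adjusted 0.0593). The relation of Cdh6 with Cdh16 was -0.964 within the Twist1 line (n = 7, exact permutation p = 0.00635) and 0.155 within the Snai1 line (n = 6, exact permutation p = 0.761), so it did not hold within both. That of Cdh3 with Cdh16 was -0.56 in the Twist1 line (exact permutation p = 0.2) and -0.123 in the Snai1 line (exact permutation p = 0.842). The p-values within lines were not adjusted over the pairs. In the Twist1 line mouse 2 (Cdh6 8.03, Cdh16 13.44) and mouse 7 (6.66 and 14.14) lay apart. The other kidneys of that line were at 7.21 to 7.28 for Cdh6 and 13.71 to 13.90 for Cdh16. The Cdh1 level was at r = -0.03 with Cdh3 and r = 0.18 with Cdh6, and the other pairs had adjusted p of 0.15 or more by Pearson's r.

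**Figure D5:**
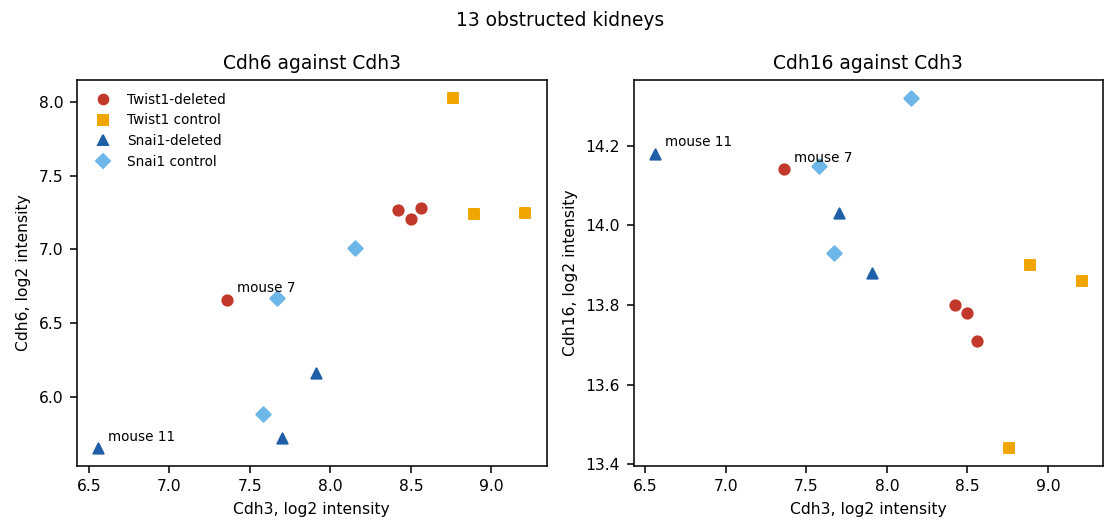
Log2 intensity of Cdh6 (left panel) and Cdh16 (right panel) on the vertical axis against that of Cdh3 on the horizontal axis in the 13 obstructed kidneys, with genotype as colour and symbol. Cdh6 is higher where Cdh3 is higher (r = 0.814). Cdh16 tends to be lower (r = -0.641), short of the threshold (adjusted permutation p = 0.134). Mice 7 and 11 have the lowest Cdh3.

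As a description over the same 13 kidneys, the genes most like Cdh3 were Bicc1 (r = 0.978), Zfp334 (0.958) and Sipa1l2 (0.955). Those most like Cdh6 were Htra3 (0.97), Neo1 (0.963) and Amotl1 (0.959). For Cdh16 they were Syt7 (0.939), Tmem117 (0.932) and Foxi1 (0.925), the last a transcription factor of intercalated cells. For Cdh1 they were Spata20 (0.909), Btaf1 (0.837) and Pop1 (0.837), and for Cdh13 Tk1 (0.901), Cenpw (0.869) and Zdhhc16 (0.846). The low Cdh2 gave Ralyl (0.828), 1700001O22Rik (0.796) and Coq8a (0.788), and the low Cdh11 gave Sfswap (0.86), Bpgm (0.847) and Lair1 (0.841). Cdh1 and Cdh3 are next to each other among the protein-coding genes of the RefSeq annotation of GRCm38.p6.

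Of 13 catenins and linkers measured, 6 rose and 3 fell in the mean obstruction comparison (median log2 change 0.21), against 62.2% of all genes changed. The largest were Vcl, vinculin, which links junctions to actin (1.41), Ctnna1, alpha-catenin (0.71), and Lima1, an actin-binding protein (0.50). With the series matrix values 3 rose and 2 fell, the median was -0.03, and Ctnna1, at 0.16, did not pass.

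In the mean obstruction comparison, in which 62.2% of all genes changed, 20 other members of the cadherin superfamily were measured out of 50 listed. Of these, 9 rose and 4 fell (median 0.02). Fat1, a giant protocadherin, rose by 1.62, and Dsg2, a desmosomal cadherin, by 1.30, while Cdhr2, of the brush border, fell by 1.44. Of 16 genes of epithelial junctions and identity, 7 rose and 4 fell (median 0.10; 6 and 6, median -0.01, with the series matrix values). The adhesion protein Nectin2 rose by 1.99 and the transcription factor Grhl2 by 0.82, and the transcription factor Ovol1 fell by 1.35.

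In the mean obstruction comparison all 9 repressors and transition factors measured rose and 0 fell (median 0.79), led by Snai2 (1.29), Zeb1 (1.03) and Zeb2 (0.94). Of all genes 33.6% rose in it. With the series matrix values 7 rose and the median was 0.68. With quantile normalisation and no background step 9 rose and it was 0.29. Within genotypes 5 of the 9 rose in Twist1-deleted, 6 in Twist1 control, 1 in Snai1-deleted and 4 in Snai1 control mice. The shares of all genes that changed were 40.1%, 47.2%, 15.2% and 36.4%. Zeb2 did not pass in either genotype of the Snai1 line, nor did Snai2 in Snai1-deleted mice. Of 14 proteases, 10 rose and 1 fell in the mean obstruction comparison (median 0.44). The matrix metalloproteinases Mmp2 (3.73), Mmp14 (3.59) and Mmp3 (2.67) led them. In the same kidneys the Cdh1 level averaged 9.92 ± 0.24 (SD, n = 13), against 9.82 ± 0.23 in contralateral kidneys (SD, n = 12). Whether the repressors or proteases bear on the Cdh1 level was not tested. In the tests of Twist1 and Snai1 deletion in obstructed kidneys, 0 genes of these 6 lists were called.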

How the data were processed

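Total RNA of 37 kidneys of 25 mice was hybridised to Illumina bead arrays. GenomeStudio 5.0 was used, per the submitters' processing notes. The deposited table gives, per the file headers, a linear average signal intensity for each probe on each array and its detection p-value. In the authors' series matrix, intensity values are a linear function of those signals, with a scale of 0.725 to 1.2 per array, column medians of 6.4 to 16.1 and values down to -28.2. The kind of scaling is not stated, and these values, set to at least 16 and put on a log2 scale, were an alternative. Columns of per-sample values matched to no sample numbered 0.

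The neqc function of limma 3.58.1 (R 4.3.3) used the detection p-values to correct the deposited intensities for background, added an offset of 16, normalised quantiles and took log2. A single gene symbol was available for 34885 of 45281 probes, several for 18 and none for 10378. Probes with a detection p-value under 0.05 on at least 3 arrays were kept (24544), with 1 probe per gene, that of the highest mean signal (12866 genes). Group means of 12 groups were fitted over all 37 arrays and 17 comparisons read from the fit, tested on simulated data beforehand. For arrays, their number limits the precision. Arrays of a group correlated at r = 0.935 to 0.992, and 0 columns were identical.

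Both kidneys of a mouse share its number in the labels, so numbers pair the samples by animal. In 12 pairs the residuals correlated at 0.174 to 0.635, with a consensus correlation of 0.234, and fits with mouse as a replicate block were alternatives. Named genes were the 7 members, the 3 called genes of each pathway list with the largest mean obstruction change, and the 3 genes most correlated with each member. The members and gene lists were chosen with earlier results of these data known.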

Additional observations from a re-analysis of the deposited data

Results flagged for a closer look

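In the group of 4 obstructed Twist1-deleted kidneys, the only group large enough for an outlier test, mouse 7 stood far below the other 3 for 2 of the 7 members. Cdh3 was at 7.36 in mouse 7 and at 8.42 to 8.56 in the others, and Cdh6 was at 6.66 in mouse 7 and at 7.21 to 7.28 in the others. The gap filled 0.882 and 0.888 of the group's range, above Dixon's 95% critical value. Chance passes that value in about 1 of 20 groups for a single gene, and all 7 members were checked. The summed injured tubule markers of this kidney were 6450 against 28456 to 33749 in the others, and its proximal tubule markers 72894 against 24672 to 36995. Mouse 7 was also the only 1 of these 4 mice whose Xist signal exceeded that of the Y-linked genes. The part of these values and of that reading was not tested.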

How the results depend on the processing

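Over members and comparisons, 971 of 991 results under other settings kept their call, which was higher, lower or neither. So did 673 of 700 with 1 mouse left out and 100 of 102 with another probe. Where the call was neither in both fits, direction was not compared. Cdh16 on obstruction reversed to -0.45 with the series matrix values, in which 43.5% of the genes called in the mean comparison were higher, against 54% in the values reported above. With those values 5 pairs of members were correlated past the threshold, against 1, and the calls over all genes were 298 against 114 for healthy Snai1 deletion, 1029 against 438 for healthy Twist1 deletion, 3571 against 2284 for contralateral against healthy kidneys and 3330 against 1727 between lines. Fitting only the groups of a comparison gave 2 members called for obstruction in Snai1-deleted mice, 2 for healthy Twist1 deletion, 0 for contralateral against healthy kidneys and 0 between lines. Array weights gave 3 for healthy Twist1 deletion and 2 for contralateral against healthy kidneys. Leaving out 1 mouse gave 1 to 3 members called for obstruction in Twist1-deleted mice (1 without mouse 4), 1 to 2 in Twist1 controls (1 without mouse 2 or 3), 0 to 2 in Snai1-deleted mice (0 without mouse 12, 2 without mouse 11), 1 to 2 in Snai1 controls (1 without mouse 8), 0 to 1 for contralateral against healthy kidneys (0 without mouse 1, 18 or 19) and 0 between lines without any 1 of the 6 mice. With mouse as a fixed replicate block 2 members were called in the mean obstruction comparison and 2 in Twist1-deleted mice, since Cdh2 was lost in both (-0.25 and -0.57); the block changed no other member's call. Between lines, the obstruction change differed for 5 genes, for 0 with the fixed and 54 with the random block. For Cdh2, Cdh3 and Cdh11, 1 other probe each was detected on 0 arrays and gave no value. Signals of Cdh2 and Cdh11 near background limit what their changes can show.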
